A study of Mus musculus with 39 samples.

Results

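The comparison set 3 libraries of mouse lung fibroblasts kept for 48 h with C1q at 100 µg/ml against the 6 libraries of the same time at 1 or 10 µg/ml, with each lower dose given equal weight. These are 9 of the 39 libraries of the series, and they were chosen by their labelled dose and time alone. Fibroblasts came from the lungs of wild-type C57BL/6 mice and had been stripped with magnetic beads of cells positive for Ter119, CD146, EpCAM, CD31 or CD45. They were grown in medium with serum, passaged and kept without serum for 24 h before C1q was added. All 9 libraries thus share the starvation and the exposure to C1q and differ in its dose. A group given only the solvent of the C1q stock was not analysed here, so C1q and anything else in that stock cannot be told apart. Whether the 3 libraries of a group are separate cultures or mice is not in the labels. The p-values therefore rest on a spread between libraries that could be technical.

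C1q recognises antibody complexes and starts classical complement activation, and it is also known to bind cells and matrix directly. Fibroblasts make and turn over the lung's collagen, elastin and other matrix, and when activated they take on contractile proteins. The pathways that follow have well-described sensors. Metallothioneins and the zinc exporter ZnT1 are induced through the transcription factor MTF-1 when free zinc rises in a cell. In the integrated stress response, phosphorylation of the initiation factor eIF2α slows protein synthesis and lets ATF4 accumulate, and ATF4 drives Ddit3, Trib3, Atf5 and genes of amino acid supply.

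The 9 libraries held 1845809 to 2154277 counts at 100 µg/ml and 2292209 to 2819956 counts at the lower doses, so depth moved with dose. Over 14419 tested genes, the first principal component of the 9 libraries took 29.2% of the variance and had the 100 µg/ml libraries at one end and all 6 others at the other. The second took 13.4% and set the first library of 10 µg/ml apart, and the third took 11% and set the first library of 100 µg/ml apart. Levels of fibroblast genes were high in all 9 libraries: Col1a1, a chain of type I collagen, had 1331, 1127 and 1256 CPM (counts scaled to a common library total with TMM factors) at 100 µg/ml and 1033 to 1313 CPM (median 1198) at the lower doses. Genes of the depleted surface proteins were detected at low levels, with Ptprc (CD45) at 4.20 to 5.90 CPM at 100 µg/ml and 6.25 to 9.29 CPM at the lower doses, Pecam1 (CD31) at 3.17 to 14.2 and 9.05 to 12.9 CPM, and Epcam at 22.4 to 30.5 and 24.2 to 33.8 CPM.

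At 100 µg/ml, 787 genes (5.46% of those tested) were higher and 1215 genes (8.43%) were lower than at the 2 lower doses (edgeR quasi-likelihood test over all 39 libraries, Benjamini-Hochberg adjusted p under 0.05). Among named genes with a mean of at least 3 on the log2 CPM scale, no overlap between the groups and a call kept with each of the 9 libraries left out, the largest rises were in Tnfrsf26, a member of the TNF receptor superfamily, Bicra, a subunit of a chromatin remodelling complex, and Lcn2, the siderophore-binding lipocalin. The zinc exporter gene Slc30a1, both metallothionein genes and Trib3 were among the first 15. The largest falls were in the matricellular gene Ccn3, the macrophage-associated genes Wfdc17, Ccl6 and Mrc1, the terminal complement gene C7 and the collagen gene Col28a1. Most differences were modest: 106 of the genes called higher and 119 of those called lower differed by at least 1 on the log2 scale, and the median over all tested genes was -0.01. In 1056 genes (7.32%) all 3 libraries at 100 µg/ml lay above all 6 others, and in 1517 genes (10.5%) they lay below, and 1642 of the 2002 called genes were among these. Leaving out the second or the third library of 100 µg/ml gave 468 or 443 higher genes, and leaving out the first, the second or the third gave 755, 749 or 795 lower genes. In a bulk sample, fewer cells of a type and less RNA per cell cannot be told apart. Rises and falls named here are differences from the lower doses at the same time. Counts of list members below stand beside 5.46% higher and 8.43% lower over all tested genes.

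The zinc and stress genes differed from each lower dose taken alone: Mt2 by 1.36 ± 0.13 from 1 µg/ml and 1.30 ± 0.13 from 10 µg/ml, and Atf5 by 0.99 ± 0.081 and 0.71 ± 0.080 (log2 ± SE). C7 differed by -2.24 ± 0.21 from 1 µg/ml and -1.85 ± 0.22 from 10 µg/ml, and Thbs1 by -1.13 ± 0.11 and -1.19 ± 0.11, and all 8 differences passed the test. Against 1 µg/ml alone, 100 µg/ml gave 551 higher genes (3.82%) and 929 lower ones (6.44%), and against 10 µg/ml alone 455 (3.16%) and 889 (6.17%). Both comparisons share the 100 µg/ml libraries. Against 1 µg/ml, leaving out the second library of 1 µg/ml gave 339 higher genes, and leaving out the second or the third of 100 µg/ml gave 364 or 318. Leaving out the first or second of 100 µg/ml gave 564 or 604 lower genes. Against 10 µg/ml, leaving out the first library of 10 µg/ml gave 279 higher and 575 lower genes. Leaving out the second or the third of 100 µg/ml gave 286 or 278 higher genes, and leaving out the first or the third gave 565 or 579 lower genes. Between the lower doses themselves, 30 genes (0.208%) were higher and 0 lower at 10 than at 1 µg/ml. DESeq2 gave 16 higher and 0 lower, and at an unadjusted p under 0.05 there were 366 higher and 305 lower genes. The count at 10 µg/ml hung on single libraries: without the first, second or the third library of 10 µg/ml it was 1, 72 or 66, and without the first, second or the third of 1 µg/ml it was 2, 3 or 8. Spp1, the gene of osteopontin (picked after its values were seen), is a gene whose level stepped down with each dose: it had 513, 507 and 479.5 CPM at 1 µg/ml, 403, 365 and 379 CPM at 10 µg/ml and 159, 161 and 165 CPM at 100 µg/ml. The 3 groups did not overlap, the difference of 100 µg/ml from both lower doses was -1.43 ± 0.11 (log2 ± SE, adjusted p = 4.59e-14), and the step between the lower doses was -0.38 ± 0.11 and did not pass the test (adjusted p = 0.24).

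Zinc-handling genes held some of the clearest differences from the lower doses. In the list of metallothioneins and zinc transporters, 3 of the 17 tested members were higher and 1 was lower. Mt2, a metallothionein that binds zinc and copper (GRCm38, chromosome 8, 94172618 to 94173567), had 233, 288 and 308 CPM at 100 µg/ml, against 94.2 to 118 CPM (median 112) at the lower doses. Its groups did not overlap, and the log2 difference was 1.33 ± 0.11 (adjusted p = 1.04e-12). Mt1, its neighbour on the chromosome (chromosome 8, 94178883 to 94180327), had 286, 350.1 and 370.1 CPM, against 122 to 156 CPM (median 143), a log2 difference of 1.25 ± 0.11 (adjusted p = 6.04e-12). Reads of the closely related Mt1 and Mt2 may be partly shared, since the treatment of reads with several matches is not given in the sources used here. Slc30a1, which encodes the exporter ZnT1 (chromosome 1, 191906697 to 191913248), had 20.0, 22.2 and 23.9 CPM, against 4.33 to 8.46 CPM (median 6.22), a log2 difference of 1.78 ± 0.21 (adjusted p = 2.73e-08). The member called lower was Slc39a10, which encodes the zinc importer ZIP10 (chromosome 1, 46807544 to 46925776). It had 46.8, 54.4 and 48.3 CPM, against 115 to 143 CPM (median 122), and its log2 difference was -1.33 ± 0.10 (adjusted p = 3.08e-14). Both metallothionein genes and the exporter gene were higher and 1 importer gene lower in every library at 100 µg/ml than in any at the lower doses. The other 13 tested members did not pass: the importer gene Slc39a14 differed by -0.19 ± 0.13 and Mtf1, the gene of the zinc-sensing factor, by -0.02 ± 0.16. Counts of 3 higher and 1 lower were the same with each of the 9 libraries left out. Untreated libraries at 0 h averaged 358 CPM for Mt1, 209 CPM for Mt2, 8.28 CPM for Slc30a1 and 70.8 CPM for Slc39a10. Their ranges were 323.6 to 401 CPM for Mt1 and 195.4 to 231 CPM for Mt2, above all lower-dose libraries at 48 h. At 100 µg/ml Mt1 overlapped its untreated range, Mt2 began just above its own, and Slc30a1 exceeded its untreated maximum of 10.02 CPM. Slc39a10 was above its untreated mean at the lower doses and below it at 100 µg/ml. Contrasts with 0 h were not tested here.

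The promoter of Mt2 is shown because metal response elements are the textbook sites at which MTF-1 binds metallothionein promoters. The letters searched were TGCNCNC (N is any base). They are looser than the usual core, which has a purine at the base after TGC, so a match need not be such an element. In the marked stretches GGGAGCA, read on the other strand, and TGCTCTC that base is T. Shown are the 250 bases before the RefSeq start of Mt2 (GRCm38.p6, chr8:94172368-94172617, plus strand), with matches to these letters on either strand in capitals. This promoter was picked after the values were seen.
Mt2: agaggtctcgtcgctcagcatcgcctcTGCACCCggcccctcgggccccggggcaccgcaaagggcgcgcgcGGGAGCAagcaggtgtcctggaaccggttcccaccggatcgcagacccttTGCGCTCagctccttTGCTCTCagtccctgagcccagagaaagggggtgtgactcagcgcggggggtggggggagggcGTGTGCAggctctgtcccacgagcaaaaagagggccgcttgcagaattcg
The letters TGCNCNC matched at 5 positions of this window, 3 on the strand shown and 2 on the other, and no 2 matches overlapped. At least 5 matches were found in 0.344% of the 32851 promoter windows of the same length, and at least 1 in 44.4%. The windows of Mt1 and Slc30a1 held 1 match each, but both of those windows overlap the annotated span of their own gene.

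**Figure D1:**
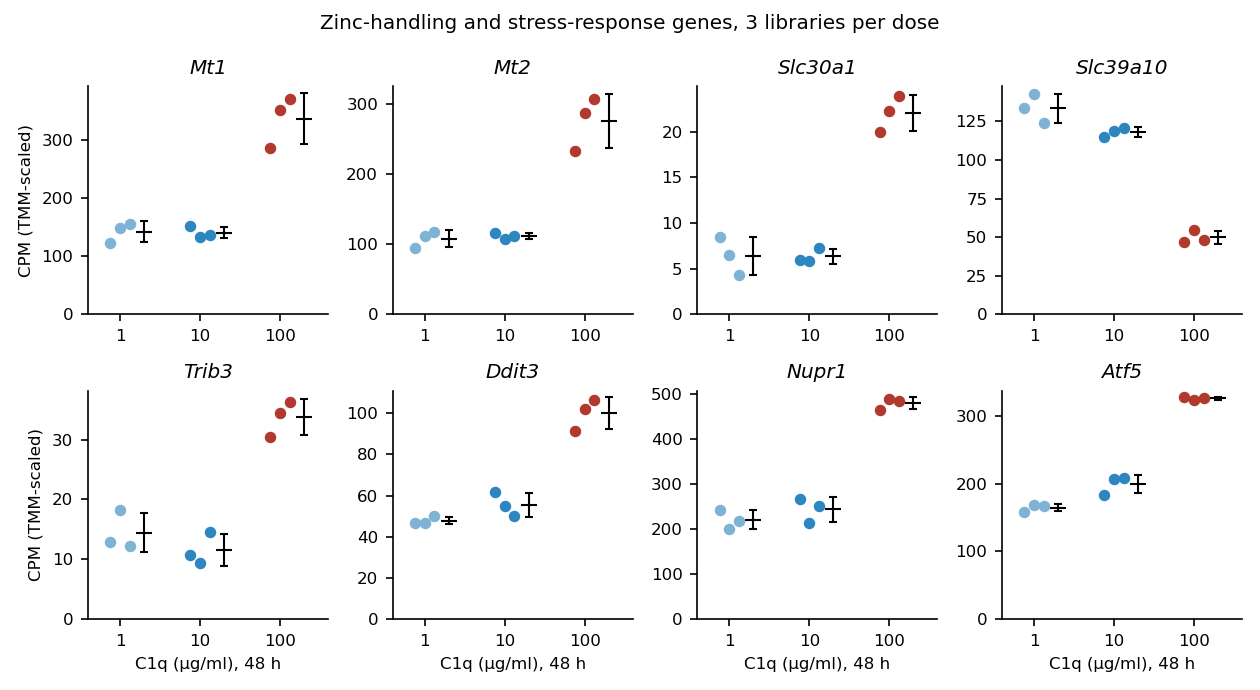
Level (CPM, linear axis from 0) of 4 zinc-handling and 4 stress-response genes in each library at 48 h, by C1q dose; points are libraries and bars are mean ± SD of 3. In all 8 panels the 3 libraries at 100 µg/ml lie outside the range of the 6 others, below it for Slc39a10 and above it for the rest.

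Genes of the integrated stress response were higher at 100 µg/ml, in 11 of 33 tested members, with 0 lower (7 higher without the third library of 100 µg/ml). The median of the list was 0.20 on the log2 scale, against -0.01 over all tested genes. The 3 libraries at 100 µg/ml lay above all 6 others in 10 members and below them in 3. Over all tested genes these shares were 7.32% and 10.5%. The lowest log2 difference of the list was -1.85. Trib3, a pseudokinase gene induced by ATF4 and CHOP, had 30.5, 34.5 and 36.4 CPM at 100 µg/ml, against 9.36 to 18.2 CPM (median 12.5) at the lower doses, a log2 difference of 1.39 ± 0.16 (adjusted p = 6.20e-09). Ddit3, which encodes the factor CHOP, had 91.4, 102 and 107 CPM, against 46.7 to 61.7 CPM (median 49.9), a difference of 0.96 ± 0.095 (adjusted p = 2.49e-10); its annotated span overlaps those of Mbd6 and Mars1. Nupr1, a stress-induced chromatin protein gene (chromosome 7, 126623246 to 126625470), had 466, 489 and 486 CPM, against 201 to 268 CPM (median 231), a difference of 1.05 ± 0.090 (adjusted p = 3.48e-12). In all 3 genes each library at 100 µg/ml was above every library of the lower doses. In the 3 untreated libraries at 0 h, Trib3, Ddit3 and Nupr1 averaged 33.3 ± 1.04, 64.6 ± 5.3 and 236 ± 21.6 CPM (mean ± SD). Their means at 100 µg/ml at 48 h were 33.8, 100 and 480 CPM, and this contrast was not tested here. Atf5, another factor of this response, rose by 0.85 ± 0.068, Sesn2, a sestrin that restrains mTORC1, by 0.78 ± 0.18, the glycine transporter gene Slc6a9 by 0.69 ± 0.14 and Atf4 itself by 0.44 ± 0.079 (adjusted p = 4.26e-13, 0.0019, 4.20e-04 and 8.27e-05). Asns, asparagine synthetase, had 45.7, 47.6 and 50.3 CPM, against 31.3 to 41.4 CPM (median 34.8), a difference of 0.43 ± 0.11 (adjusted p = 0.0068), a call kept with 8 of the 9 libraries left out. Several amino acid genes of the same list did not pass, among them the serine synthesis genes Phgdh at 0.02 ± 0.10 and Psat1 at 0.01 ± 0.10, Chac1 at 0.17 ± 0.24 and the tRNA synthetase gene Gars at 0.01 ± 0.093. Of the 22 tested genes of endoplasmic reticulum chaperones and the unfolded protein response, 0 were higher and 3 lower (1 lower without the first or the second library of 100 µg/ml).

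The amino acid response element, here TGATGNAAN on either strand, is the site that ATF4 with a partner binds in several of these genes. Among the 250 base windows before the start of Trib3, Ddit3, Atf5, Sesn2, Nupr1 and Asns, it matched once each in Nupr1 and Asns, which are shown with the match in capitals (Nupr1 chr7:126625471-126625720 and Asns chr6:7693210-7693459, both on the minus strand of RefSeq GRCm38.p6 and written 5′ to 3′ along the gene).
Nupr1: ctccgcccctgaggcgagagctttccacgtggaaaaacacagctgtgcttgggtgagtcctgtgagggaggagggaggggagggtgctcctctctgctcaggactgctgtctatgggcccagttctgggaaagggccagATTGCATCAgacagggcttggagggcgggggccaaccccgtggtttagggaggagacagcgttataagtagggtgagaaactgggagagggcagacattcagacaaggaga
Asns: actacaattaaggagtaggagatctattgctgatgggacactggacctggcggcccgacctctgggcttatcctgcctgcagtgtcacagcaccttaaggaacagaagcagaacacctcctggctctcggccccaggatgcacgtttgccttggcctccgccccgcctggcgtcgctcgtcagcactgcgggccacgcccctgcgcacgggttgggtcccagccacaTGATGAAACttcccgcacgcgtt
Of all 32851 windows, 3.44% held at least 1 match. A window without a match says only that these letters are not in it.

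Contractile and cytoskeletal genes of myofibroblasts were lower at 100 µg/ml, in 10 of 20 tested members with 0 higher, and 8 to 11 were called lower with 1 library left out. Acta2, smooth muscle actin, had 793, 820.0 and 825 CPM at 100 µg/ml, against 926 to 1355 CPM (median 1087) at the lower doses. The groups did not overlap, and the log2 difference was -0.44 ± 0.11 (adjusted p = 0.0041). Tagln, the actin-binding transgelin, fell by 0.55 (adjusted p = 5.70e-05), with 344, 357 and 316 CPM, against 428 to 556 CPM (median 508). Cnn1, calponin, and Vcl, the focal adhesion protein vinculin, differed by -1.05 ± 0.25 and -0.61 ± 0.11 (adjusted p = 0.0028 and 4.75e-05). In these 4 genes every library at 100 µg/ml was below every library of the lower doses. Members that did not pass include Tpm2 at -0.01 ± 0.091, Flna at 0.00 ± 0.10 and Myl9 at -0.29 ± 0.11 (adjusted p = 0.064).

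Genes that respond to TGF-beta or to mechanical signals moved in both directions. Of 19 tested TGF-beta ligands, receptors and responsive genes, 3 were higher and 4 lower; 1 was higher without the second library of 1 µg/ml, the first of 10 µg/ml or either the first or second of 100 µg/ml. Ccn2, connective tissue growth factor, had 177, 156 and 151 CPM at 100 µg/ml, against 228 to 326 CPM (median 297), a log2 difference of -0.83 ± 0.10 (adjusted p = 1.13e-08). Its relative Ccn1 had 316, 316 and 315 CPM, against 345 to 503 CPM (median 428), a difference of -0.46 ± 0.11 (adjusted p = 0.0029). Ankrd1, an ankyrin repeat gene induced by YAP and outside that list, had 7.88, 10.4 and 8.97 CPM, against 23.5 to 34.5 CPM (median 29.7), a difference of -1.67 ± 0.23 (adjusted p = 4.43e-07). All 3 lay below the lower-dose libraries in each library at 100 µg/ml. The ligand gene Tgfb1 and the receptor gene Tgfbr2 did not pass, at 0.16 ± 0.12 and -0.11 ± 0.079. Ltbp2, a latent TGF-beta binding family member found on elastic fibres, rose, with 87.8, 74.4 and 76.7 CPM, against 45 to 63.3 CPM (median 57.6) and a difference of 0.53 ± 0.12 (adjusted p = 0.0013).

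Among matrix glycoproteins, elastic fibre proteins and proteoglycans, 16 of 36 tested members were lower and 4 higher. Thbs1, thrombospondin 1, had the largest fall of the list: it had 358, 322 and 285 CPM at 100 µg/ml, against 601 to 787 CPM (median 744), a log2 difference of -1.16 ± 0.10 (adjusted p = 8.94e-13). Eln, elastin, had 845, 900.3 and 877 CPM, against 1296 to 1730.0 CPM (median 1550.0), a difference of -0.82 ± 0.10 (adjusted p = 5.30e-08). The proteoglycan lumican (Lum), dermatopontin (Dpt), tenascin C (Tnc) and fibronectin (Fn1) differed by -0.89 ± 0.15, -0.87 ± 0.10, -0.85 ± 0.13 and -0.62 ± 0.14 (adjusted p = 3.73e-05, 4.56e-09, 8.60e-06 and 0.0012). Each of the 6 was below the lower-dose range in all 3 libraries. The members that rose were Ltbp2, the small proteoglycan genes Aspn (0.47 ± 0.11) and Ogn (0.43 ± 0.078), and Fbln5 (0.37 ± 0.092), a fibulin needed for elastic fibre assembly (adjusted p = 0.0018, 9.77e-05 and 0.0035).

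Fibrillar collagen genes mostly did not pass: 1 of 9 was higher and 2 lower (1 lower without the first library of 100 µg/ml). Col1a1 and Col1a2 differed by 0.07 ± 0.092 and -0.07 ± 0.073, while Col3a1, of type III collagen, had 2875, 2742 and 2641 CPM at 100 µg/ml, against 3146 to 3715 CPM (median 3322), a difference of -0.29 ± 0.073 (adjusted p = 0.0051). Col27a1 rose, with 35.2, 42.2 and 45.3 CPM, against 20.3 to 27.2 CPM (median 24.8), a difference of 0.75 ± 0.14 (adjusted p = 1.21e-04). Outside the fibrillar group, Col28a1 (chromosome 6, 7997100 to 8193709), known in mice from peripheral nerve, had 35.7, 32.7 and 30.4 CPM, against 106 to 139 CPM (median 120.1), a difference of -1.86 ± 0.11 (adjusted p = 1.10e-16). Col8a1, a short-chain collagen, differed by -0.82 ± 0.12 (adjusted p = 1.37e-06), and in both genes every library at 100 µg/ml was below every other.

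Matrix proteases and their inhibitors were lower in 14 of 27 tested members and higher in 2 (1 higher without the first or second library of 1 µg/ml, the first or the third of 10 µg/ml, or any of 100 µg/ml). Mmp8, a collagenase, had 84.1, 70.3 and 81.7 CPM at 100 µg/ml, against 170.2 to 192 CPM (median 181), a log2 difference of -1.22 ± 0.085 (adjusted p = 1.05e-14). The stromelysin gene Mmp3 had 359, 356 and 399.5 CPM, against 725 to 802 CPM (median 746), a difference of -1.02 ± 0.076 (adjusted p = 4.59e-14). Both sets of libraries were apart. Mmp13, Mmp10 and the inhibitor gene Timp1 differed by -1.17 ± 0.19, -0.97 ± 0.15 and -0.68 ± 0.090 (adjusted p = 2.49e-05, 5.76e-06 and 3.31e-07). The gelatinase gene Mmp9 went the other way from a low level, with 8.41, 5.90 and 7.97 CPM, against 0.808 to 4.42 CPM (median 1.92), and a difference of 1.70 ± 0.34 (adjusted p = 3.23e-04).

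**Figure D2:**
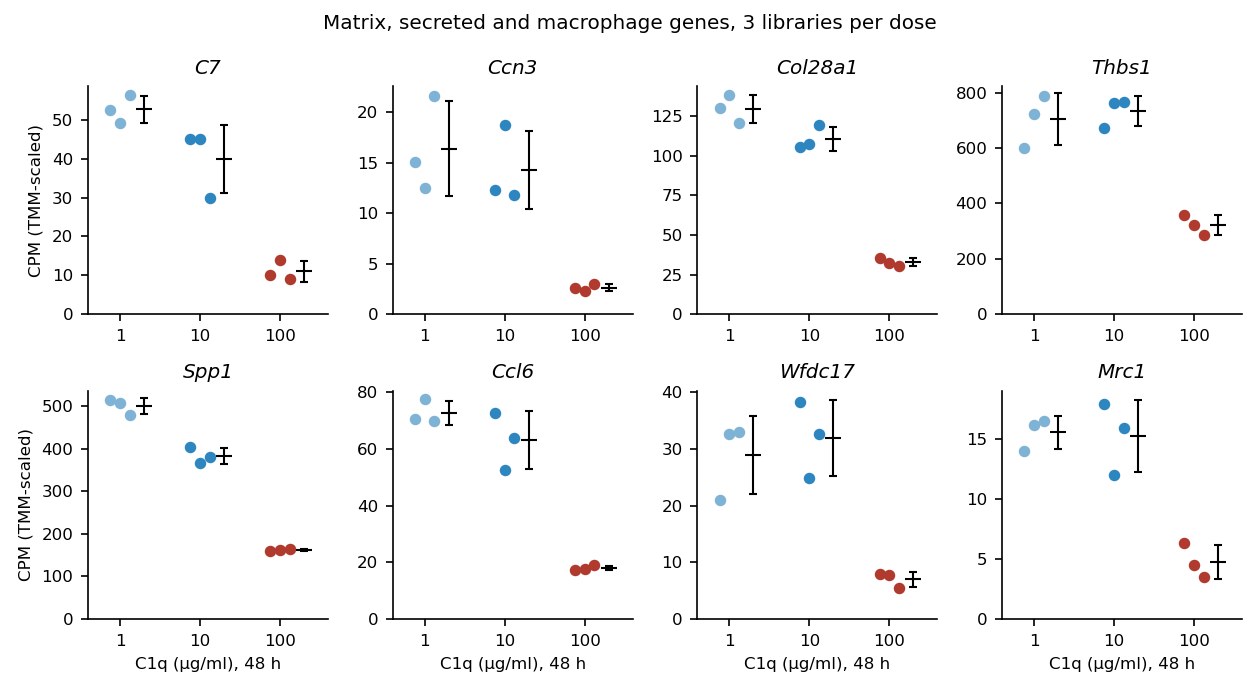
Level (CPM, linear axis from 0) of 8 genes lower at 100 µg/ml in each library at 48 h, by C1q dose; points are libraries and bars are mean ± SD of 3. In all 8 panels the 3 libraries at 100 µg/ml lie below the 6 others, and in Spp1 the 10 µg/ml libraries also lie below those at 1 µg/ml.

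Complement genes were lower in 10 of 24 tested members, with 0 higher, and 7 to 10 were called lower with 1 library left out. C7, a component of the membrane attack complex (chromosome 15, 4987750 to 5063773), had 9.99, 14.1 and 8.97 CPM at 100 µg/ml, against 29.9 to 56.3 CPM (median 47.1) at the lower doses, a log2 difference of -2.05 ± 0.20 (adjusted p = 1.11e-10). Clu, clusterin, which blocks assembly of that complex, had 239, 269 and 256 CPM, against 467 to 577 CPM (median 557), a difference of -1.10 ± 0.084 (adjusted p = 1.18e-13). C1s1, the protease that C1q carries in the C1 complex, and C4b, its substrate, differed by -0.55 ± 0.076 and -0.46 ± 0.11 (adjusted p = 7.89e-07 and 0.0038). Of the genes of C1q itself, C1qb had 41, 44.9 and 48.3 CPM, against 62.8 to 80.8 CPM (median 73.4), a difference of -0.72 ± 0.12 (adjusted p = 3.42e-05), and C1qa differed by -0.63 ± 0.14 (adjusted p = 0.0014). C1qc did not pass, at -0.30 ± 0.14. Among 14 tested genes described as C1q-binding receptors, 1 was higher, Ager, and 1 lower, shares near the 5.46% and 8.43% over all tested genes. The lower one was not called without the third library of 1 µg/ml or without the first or second of 100 µg/ml, and 2 were without the third of 100 µg/ml. Ager encodes the receptor RAGE and is also a marker of alveolar epithelium; it had 17.3, 23.1 and 17.9 CPM, against 7.09 to 14.5 CPM (median 10.1), a difference of 0.93 ± 0.17 (adjusted p = 8.82e-05).

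C1qa and C1qb are made mainly by macrophages, and some other macrophage markers were lower as well. Of 22 tested macrophage and other myeloid markers, 6 were lower, C1qa and C1qb among them, and 0 were higher. The list also holds C1qc. The summed level of the list was 732.8 to 781.0 CPM at 100 µg/ml and 836.7 to 994.6 CPM at the lower doses. Mrc1, the mannose receptor (chromosome 2, 14229414 to 14332023), had 6.31, 4.54 and 3.49 CPM, against 12 to 17.9 CPM (median 16), a log2 difference of -1.69 ± 0.27 (adjusted p = 1.30e-05). Its mean in the untreated libraries at 0 h was 0.902 CPM, below all of these levels. The signalling adaptor genes Tyrobp and Fcer1g differed by -0.83 ± 0.20 and -0.59 ± 0.14 (adjusted p = 0.0027 and 0.0019). Adgre1 (F4/80), Csf1r and Lyz2 did not pass, at 0.32 ± 0.31, -0.31 ± 0.25 and -0.10 ± 0.081. Wfdc17, a secreted WAP-domain gene of mouse macrophages, had 7.88, 7.71 and 5.48 CPM, against 21 to 38.2 CPM (median 32.7), a difference of -2.10 ± 0.24 (adjusted p = 9.54e-09). Ccl6, a chemokine gene of mouse myeloid cells, had 17.3, 17.7 and 18.9 CPM, against 52.6 to 77.5 CPM (median 70.4), a difference of -1.91 ± 0.16 (adjusted p = 3.47e-12). The share of these differences that comes from macrophage RNA was not tested.

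Endothelial and mesothelial markers were also lower in part. Of 13 tested endothelial markers 6 were lower and 0 higher (3 lower without the second library of 100 µg/ml), with a summed level of 128.3 to 156.6 CPM at 100 µg/ml and 177.2 to 204.3 CPM at the lower doses. Lyve1, which also marks a class of tissue macrophages, had 1.05, 2.27 and 0.996 CPM, against 5.15 to 9.52 CPM (median 6.37), and Kdr, a VEGF receptor, 2.63, 4.08 and 2.99 CPM, against 7.48 to 10.1 CPM (median 7.65). Their log2 differences were -2.16 ± 0.46 and -1.34 ± 0.33 (adjusted p = 7.44e-04 and 0.0032). Of 10 mesothelial markers 4 were lower (2 without the second or the third library of 100 µg/ml), among them Upk3b at -0.61 ± 0.10 (adjusted p = 1.79e-05); the summed level was 534.5 to 598.2 CPM at 100 µg/ml and 619.5 to 780.7 CPM at the lower doses. Of 16 epithelial markers 2 were higher and 2 lower, and only Ager was called with each of the 9 libraries left out; the summed ranges overlapped, at 217.6 to 257.2 and 244.5 to 305.7 CPM. The single call lower among 10 pericyte and smooth muscle markers was lost without the second or the third library of 100 µg/ml. No lymphocyte or erythroid marker had enough counts to be tested. The lymphocyte markers summed to 2.49 to 4.54 CPM at 100 µg/ml and 0.891 to 2.42 CPM at the lower doses, with Ms4a1 and Nkg7 at 0 counts, and the erythroid markers to 0 CPM and 0 to 2.72 CPM.

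Markers of fibroblast subsets did not move as one. Among 16 markers of adventitial fibroblasts 5 were lower and 0 higher (3 lower without the first library of 100 µg/ml). Il33, an alarmin cytokine, had 23.1, 17.2 and 20.4 CPM at 100 µg/ml, against 36.2 to 44.1 CPM (median 39.2), a log2 difference of -0.97 ± 0.15 (adjusted p = 6.06e-06). The Wnt antagonist gene Sfrp1 had 568, 611 and 632 CPM, against 1021 to 1132 CPM (median 1047), a difference of -0.82 ± 0.071 (adjusted p = 5.31e-12). Among 15 markers of alveolar fibroblasts 4 were higher and 1 lower (2 higher without the first library of 1 µg/ml or the second or the third of 100 µg/ml). Itga8, an integrin chain, had 186, 143 and 165 CPM, against 81.7 to 96.1 CPM (median 92.2), a difference of 0.86 ± 0.089 (adjusted p = 8.87e-10), while Gpc3, a glypican, differed by -0.33 ± 0.080 (adjusted p = 0.0028). Of 12 tested general fibroblast markers 5 were lower and 2 higher, with a median of -0.14 on the log2 scale. Leaving out the first library of 100 µg/ml gave 3 lower. Leaving out the first library of 1 µg/ml, the first of 10 µg/ml or the first or second of 100 µg/ml gave 1 higher, and leaving out the third of 100 µg/ml gave 0. The summed level of the list was 9556 to 10106 CPM at 100 µg/ml and 10447 to 11930.0 CPM at the lower doses. Pdgfra, 1 of the 2 higher, had 521, 479.9 and 541 CPM, against 357 to 442 CPM (median 426), a difference of 0.32 ± 0.086 (adjusted p = 0.0092), kept with 8 of the 9 libraries left out.

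**Figure D3:**
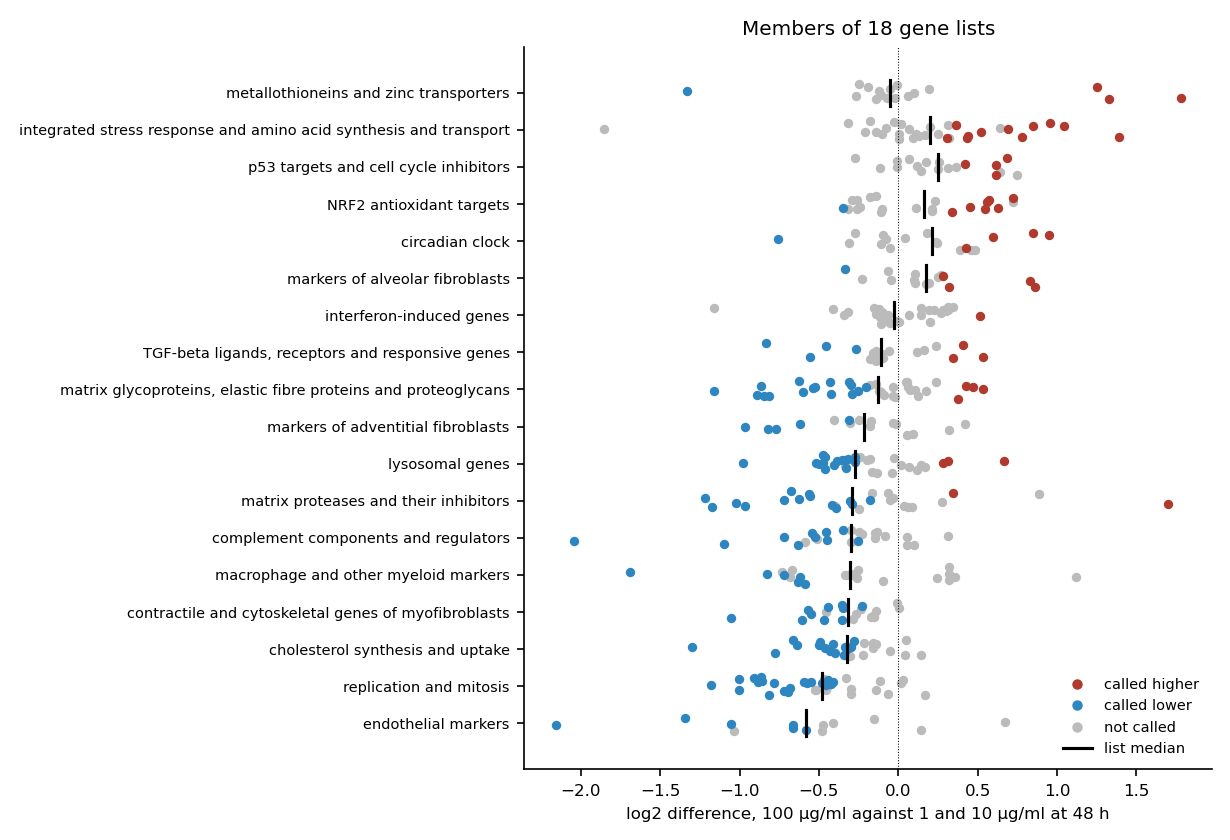
Log2 difference of 100 µg/ml against 1 and 10 µg/ml at 48 h (x axis) for each tested member of 18 gene lists (rows). Red points were called higher, blue lower and grey neither, and the black bar is the list median. The stress response list holds 11 red and 0 blue points, and the contractile, cholesterol and cell cycle lists hold blue and no red points.

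Of 35 tested replication and mitosis genes 20 were lower and 0 higher (12 and 10 without the second and the third library of 100 µg/ml). Cdk1, the mitotic kinase, had 17.9, 19.5 and 17.4 CPM at 100 µg/ml, against 28.1 to 38.6 CPM (median 33.6), a log2 difference of -0.86 ± 0.15 (adjusted p = 4.63e-05), and the cyclin gene Ccnb2 differed by -1.01 ± 0.18 (adjusted p = 6.52e-05). Cdkn1a, the cell cycle inhibitor p21, went the other way, with 293, 295 and 315 CPM, against 175 to 216 CPM (median 195), a difference of 0.61 ± 0.085 (adjusted p = 7.70e-07). It is 1 of 4 genes higher, with 0 lower, among 18 tested p53 targets and cell cycle inhibitors; another, Phlda3, differed by 0.68 ± 0.085 (adjusted p = 7.85e-08), while the p53 target Mdm2 did not pass, at -0.12 ± 0.091. Of 25 cholesterol synthesis and uptake genes 15 were lower and 0 higher (7 without the second library of 100 µg/ml). Idi1, isopentenyl diphosphate isomerase, had 49.4, 54.4 and 45.8 CPM, against 64 to 98.7 CPM (median 87.7), a difference of -0.78 ± 0.10 (adjusted p = 4.25e-07), and Fdps, farnesyl diphosphate synthase, differed by -0.50 ± 0.091 (adjusted p = 1.12e-04).

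Ribosomal protein genes were lower almost throughout, in 73 of 76 tested members with 0 higher, by small amounts that ran from -0.65 to -0.24 on the log2 scale with a median of -0.42. With 1 library left out, 63 to 75 were called lower. Rpl13a had 1509, 1523 and 1427 CPM at 100 µg/ml, against 2085 to 2661 CPM (median 2375), a difference of -0.65 ± 0.081 (adjusted p = 8.04e-08). In 68 of the 76 genes all 3 libraries at 100 µg/ml lay below the 6 others. The summed share of ribosomal protein genes was 5.81% to 5.99% of counts at 100 µg/ml and 6.76% to 7.85% at the lower doses. Total counts were also lower at 100 µg/ml. With all libraries thinned to the smallest total, 73 ribosomal protein genes, 19 replication and mitosis genes and 12 cholesterol genes were called lower. In the same fit 11 stress response genes were called higher. Thinning evens out only the totals. The TMM factors also went with dose, at 1.03 to 1.048 at 100 µg/ml and 0.9178 to 0.9907 at the lower doses. Whether other differences between libraries play a part was not tested.

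Lysosomal genes were lower in 15 of 31 tested members and higher in 3 (1 higher without the third library of 100 µg/ml). The hexosaminidase gene Hexa and the cathepsin genes Ctsb and Ctsc differed by -0.50 ± 0.084, -0.46 ± 0.065 and -0.46 ± 0.094 on the log2 scale (adjusted p = 3.01e-05, 8.63e-07 and 4.22e-04), while the membrane protein gene Scarb2 rose by 0.28 ± 0.063 (adjusted p = 0.0014). NRF2 antioxidant targets were higher in 7 of 22 and lower in 1 (2 lower without the third library of 1 µg/ml or the first of 10 µg/ml). Srxn1, sulfiredoxin, had 56.2, 52.6 and 60.3 CPM, against 35 to 37.4 CPM (median 36.7), a difference of 0.63 ± 0.11 (adjusted p = 5.22e-05); the glutathione transferase genes Gstm1 and Gsta3 differed by 0.56 ± 0.084 and 0.57 ± 0.13 (adjusted p = 4.59e-06 and 0.0013). Prdx1, a peroxiredoxin of the same list, differed by -0.35 ± 0.091 (adjusted p = 0.0063).

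Inflammatory and acute-phase genes split. Of 26 tested cytokine, chemokine and adhesion genes, 9 were lower and 3 higher. Il6 had 9.46, 12.2 and 9.46 CPM at 100 µg/ml, against 16 to 23.9 CPM (median 19.8), a log2 difference of -0.91 ± 0.23 (adjusted p = 0.0044). The chemokine gene Cxcl12 and the interleukin 1 receptor antagonist gene Il1rn differed by -0.47 ± 0.066 and -1.43 ± 0.27 (adjusted p = 1.01e-06 and 2.09e-04), and the adhesion genes Vcam1 and Icam1 by -0.37 ± 0.088 and 0.42 ± 0.086 (adjusted p = 0.003 and 4.74e-04), in opposite directions. Of 11 acute-phase and STAT3-responsive genes, 5 were higher (3 without the third library of 100 µg/ml) and 4 lower. Lcn2 had 15.8, 27.2 and 29.9 CPM, against 3.63 to 7.57 CPM (median 4.72), a difference of 2.25 ± 0.29 (adjusted p = 2.32e-07), whereas the protease inhibitor gene Serpina3n had 676, 652 and 714 CPM, against 1298 to 1493 CPM (median 1367), a difference of -1.01 ± 0.078 (adjusted p = 1.18e-13). Every library at 100 µg/ml was above the others in Lcn2 and below them in Serpina3n. Among 24 immediate early genes 9 were lower and 3 higher (1 higher without the first or the third library of 100 µg/ml): Jun, Fos and Myc differed by -0.55 ± 0.086, -0.57 ± 0.12 and -0.92 ± 0.22 (adjusted p = 6.25e-06, 8.58e-04 and 0.0023), and the phosphatase gene Dusp1 by 0.67 ± 0.12 (adjusted p = 9.01e-05).

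Secreted growth regulators held calls in both directions, beside 5.46% higher and 8.43% lower over all tested genes. The shares lower among the growth factor and clock genes and higher among the BMP genes were not above these. Igf1, insulin-like growth factor 1, had 284, 256 and 289 CPM at 100 µg/ml, against 432 to 537 CPM (median 483), a log2 difference of -0.80 ± 0.088 (adjusted p = 3.16e-09). The binding protein genes Igfbp4 and Igfbp3 differed by -0.77 ± 0.081 and -1.09 ± 0.17, and Igfbp6 by 0.77 ± 0.076 (adjusted p = 1.14e-09, 5.24e-06 and 2.01e-10). In Igfbp6 the libraries at 100 µg/ml had 574, 613 and 570.4 CPM, against 309 to 377 CPM (median 346), so the groups were apart. Over 16 tested genes of IGF signalling 4 were lower and 2 higher (1 higher without the second library of 1 µg/ml, the first of 10 µg/ml or any of 100 µg/ml). Of 35 other growth factor genes and receptors 6 were higher and 2 lower, with Pdgfa at 0.80 ± 0.13 and Fgfr1 at 0.53 ± 0.094 among the rises and Hgf at -0.78 ± 0.13 among the falls (adjusted p = 3.31e-05, 6.88e-05 and 1.79e-05). Among 19 BMP pathway genes 6 were lower and 1 higher (0 higher without the second or the third library of 1 µg/ml, the first or second of 10 µg/ml, or the second or the third of 100 µg/ml). The antagonist genes Chrdl1 and Fst differed by -1.54 ± 0.18 and -0.94 ± 0.13, and the ligand gene Bmp4 by -0.54 ± 0.10 (adjusted p = 3.27e-08, 9.61e-07 and 9.20e-05). Of 18 circadian clock genes 4 were higher and 1 lower (0 lower without the first library of 100 µg/ml), among them the clock output gene Dbp at 0.95 ± 0.14 and Per3 at 0.85 ± 0.15 (adjusted p = 4.36e-06 and 6.78e-05).

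Of the other lists, the calls of the Wnt and fatty acid lists were near the 5.46% higher and 8.43% lower over all tested genes. The share called lower was above 8.43% in the glycolysis and hyaluronan lists. Of 24 tested Wnt pathway genes 2 were higher (1 without the third library of 100 µg/ml) and 3 lower, with the Wnt-binding antagonist gene Sfrp2 at -0.57 ± 0.13 and Dkk3 at 0.32 ± 0.071 (adjusted p = 0.0012 and 0.001). Of 26 glycolysis and hypoxia genes 7 were lower (3 with the second 100 µg/ml library left out) and 2 higher (1 with any of the 100 µg/ml libraries left out). Adm, the vasodilator peptide adrenomedullin, had 290.1, 297 and 303 CPM at 100 µg/ml, against 369 to 501 CPM (median 460.0), a difference of -0.58 ± 0.077 (adjusted p = 3.31e-07), and Gapdh differed by -0.33 ± 0.077 (adjusted p = 0.0021). Of 11 genes of hyaluronan metabolism and binding 3 were lower and 1 higher: the hyaluronidase genes Cemip and Hyal1 differed by -0.51 ± 0.086 and 0.78 ± 0.13 (adjusted p = 3.12e-05 and 4.56e-05), in opposite directions. The fatty acid elongase gene Elovl6 was the 1 lower gene, with 0 higher, among 14 of fatty acid synthesis, at -0.50 ± 0.11 (adjusted p = 7.18e-04; 2 lower without the first or the third library of 10 µg/ml or the third of 100 µg/ml).

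The gene with the largest rise, Tnfrsf26 (chromosome 7, 143607685 to 143627845), was uneven at 100 µg/ml, with 327, 1031 and 944 CPM in the first, second and the third library, against 41.2 to 72.9 CPM (median 51.7) at the lower doses. The groups did not overlap, and the log2 difference was 3.85 ± 0.48 (adjusted p = 8.68e-08). The first library was also the lowest of the 3 in Bicra, with 64.6, 149 and 158 CPM, against 19.9 to 28.5 CPM (median 22.8). So it was in Amt, a glycine cleavage enzyme gene, with 21.5, 43.1 and 36.9 CPM, against 6.68 to 11.3 CPM (median 10.2), and in Lrrtm1, with 25.8, 54 and 55.3 CPM, against 10.8 to 20.1 CPM (median 12.9). Their differences were 2.41 ± 0.37, 1.81 ± 0.33 and 1.73 ± 0.35 (adjusted p = 5.25e-06, 9.77e-05 and 4.68e-04), and all 4 calls were kept with each of the 9 libraries left out in turn. Tnfrsf26 was also uneven at 100 µg/ml at other times, at 30.0 to 1370 CPM at 2 h, 58.2 to 538 CPM at 24 h and 97.4 to 534 CPM at 72 h. Its untreated mean was 29.4 CPM. Bicra ran from 13.7 to 241 CPM at 100 µg/ml at 2 h, with an untreated mean of 18.2 CPM. Lrrtm1 lies within the span of Ctnna2 and Bicra overlaps predicted genes, so reads may be shared. Carmn, a long noncoding RNA gene that overlaps Mir143 and Mir145a, was even over the 3 libraries, with 41.5, 38.1 and 45.8 CPM, against 14 to 21 CPM (median 15.5), a difference of 1.32 ± 0.18 (adjusted p = 4.20e-07). Plekha6, Tmem8b, the mitochondrial carrier gene Slc25a42, Gpr27 and the fructokinase gene Khk differed by 1.46 ± 0.22, 1.40 ± 0.24, 1.32 ± 0.20, 1.28 ± 0.26 and 1.24 ± 0.21, all past the threshold, and Gpr27 overlaps Eif4e3.

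Of the largest falls, Ccn3, a matricellular relative of Ccn2, had 2.63, 2.27 and 2.99 CPM at 100 µg/ml, against 11.8 to 21.7 CPM (median 13.8), a log2 difference of -2.52 ± 0.34 (adjusted p = 3.31e-07). The neutral endopeptidase gene Mme, a marker of lung fibroblasts among other cells, had 36.3, 37.2 and 29.9 CPM, against 87.5 to 107 CPM (median 92.3), a difference of -1.45 ± 0.13 (adjusted p = 5.02e-12). The groups were apart in both. Lmcd1, a LIM-domain transcriptional regulator, Apln, the ligand of the apelin receptor, Prg4, lubricin, and Chodl, chondrolectin, differed by -1.81 ± 0.19, -1.44 ± 0.20, -1.47 ± 0.25 and -1.80 ± 0.27 (adjusted p = 1.06e-09, 8.67e-07, 4.22e-05 and 5.27e-06). The transcription factor gene Klf5 and the protease inhibitor gene A2m had low levels, 2.63, 2.72 and 5.48 CPM, against 8.83 to 13.8 CPM (median 10.1), and 8.41, 3.17 and 2.99 CPM, against 11 to 15.1 CPM (median 13.2), and differed by -1.53 ± 0.34 and -1.44 ± 0.29 (adjusted p = 0.0012 and 4.53e-04).

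Interferon-induced genes were set apart by 1 library. The summed level of the list was 1181 to 1236 CPM in the 3 libraries at 100 µg/ml, 807.4 to 1071 CPM in 5 of the lower-dose libraries, and 3712 CPM in the first library of 10 µg/ml. Isg15, an interferon-induced ubiquitin-like modifier, had 52, 54 and 52.8 CPM at 100 µg/ml, 371, 24.9 and 49.4 CPM at 10 µg/ml and 23.2, 25 and 20.5 CPM at 1 µg/ml. Ifit3, an interferon-induced antiviral gene, had 70.9, 55.8 and 64.3 CPM at 100 µg/ml, 288, 24.1 and 44.4 CPM at 10 µg/ml and 26.1, 20.6 and 17.7 CPM at 1 µg/ml. In both genes the first library of 10 µg/ml was the highest of the 9, and the others at the lower doses lay below all 3 at 100 µg/ml. With all libraries, 1 of 30 tested members, Ifit2, was higher at 100 µg/ml and 0 lower, and Ifit2 was not called without the second library of 100 µg/ml. Without the first library of 10 µg/ml 15 were higher and 0 lower, with Ifit3 at 1.22 ± 0.17 (adjusted p = 1.20e-06), Stat2 at 0.70 ± 0.13 (adjusted p = 1.57e-04) and Isg15 at 0.86 ± 0.25 (adjusted p = 0.014). With the first library of 100 µg/ml left out as well, 12 were higher. The first library of 10 µg/ml was the highest in this same list, so leaving it out moves the list towards higher at 100 µg/ml. In the same comparison at 24 h and at 72 h, 2 members were higher and 0 lower, with list medians of 0.35 and 0.44. The first library of 10 µg/ml also held 2557 CPM of MHC class I genes. The other lower-dose libraries held 1555 to 1771 CPM of these and those at 100 µg/ml 1550 to 1650 CPM. Of the 30 genes higher at 10 than at 1 µg/ml, 15 are in the interferon list. Ifi44, with 115, 6.24 and 6.80 CPM at 10 µg/ml and 3.31, 0.808 and 3.15 CPM at 1 µg/ml, had the largest difference of them (4.14 ± 0.67, adjusted p = 0.0019).

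**Figure D4:**
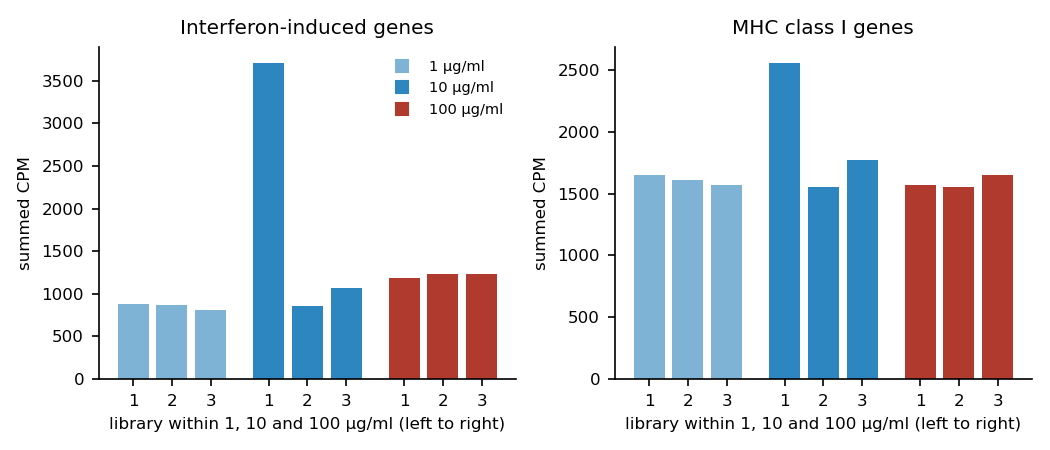
Summed level (CPM, linear axis from 0) of the interferon-induced and the MHC class I genes in each of the 9 libraries at 48 h, grouped by dose from 1 to 100 µg/ml. The first library at 10 µg/ml reaches 3712 and 2557 CPM, and the 3 at 100 µg/ml lie at 1181 to 1236 and 1550 to 1650 CPM.

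The same comparison at 24 and 72 h used other libraries, so it shows which of these differences were seen at other times. At 100 µg/ml 827 genes (5.74%) were higher and 1268 (8.79%) were lower at 24 h. The counts were 952 (6.6%) and 1197 (8.3%) at 72 h. Of the genes higher at 48 h, 255 were also higher at 24 h, which is 32.4% of the 48 h calls and 30.8% of the 24 h calls, and 356 at 72 h (45.2% and 37.4%). Of the genes lower at 48 h, 588 were also lower at 24 h (48.4% and 46.4%) and 684 at 72 h (56.3% and 57.1%). Opposite calls were few: 8 genes higher and 16 lower at 48 h were called the other way at 24 h, and 1 and 2 at 72 h. A test of the difference itself found that 89 genes (0.617%) had a larger log2 difference at 48 h than at 24 h and 89 (0.617%) a smaller one. Larger and smaller follow the sign here, so a fall that shrank counts as larger and a fall that grew as smaller. The count of larger differences was 197 without the third 24 h library of 1 µg/ml, 58 or 51 without the first or the third of 100 µg/ml at 24 h, and 50 or 41 without the second or the third of 100 µg/ml at 48 h. The count of smaller ones was 144 without the third 24 h library of 1 µg/ml, 58 without the first of 10 µg/ml at 24 h, 55, 50 or 40 without the first, second or the third of 100 µg/ml at 24 h, and 55, 52 or 43 without the first, second or the third of 100 µg/ml at 48 h. Between 72 and 48 h the difference was larger in 8 genes (0.0555%) and smaller in 3 (0.0208%). Of the 18 libraries left out in turn, several moved these small counts. The 8 became 1 without the first or second 48 h library of 100 µg/ml, and 2 without the third 48 h library of 10 µg/ml or the first 72 h library of 100 µg/ml. They became 3 without the third 48 h library of 100 µg/ml or the third 72 h library of 1 or 100 µg/ml. They became 4 without the third 48 h library of 1 µg/ml, the second 48 h library of 10 µg/ml, the second or the third 72 h library of 10 µg/ml or the second 72 h library of 100 µg/ml. The 3 became 1 without the second or the third 48 h library of 100 µg/ml.

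Stress response genes were among those that differed between 24 and 48 h, with 7 of the 33 tested members higher by this test and 0 lower. Atf5 had a log2 difference of -0.05 ± 0.068 at 24 h, 0.85 ± 0.068 at 48 h and 1.24 ± 0.067 at 72 h, and the step between 24 and 48 h was 0.90 ± 0.10 (adjusted p = 3.28e-08). Ddit3 ran 0.01 ± 0.092, 0.96 ± 0.095 and 0.91 ± 0.095 at these times, with a step of 0.94 ± 0.13 (adjusted p = 1.57e-05), and Trib3 0.15 ± 0.13, 1.39 ± 0.16 and 1.16 ± 0.17, with a step of 1.24 ± 0.20 (adjusted p = 2.18e-04). In levels, Trib3 at 24 h averaged 27.1 ± 2.30 CPM at 1 µg/ml, 29.8 ± 3.30 CPM at 10 µg/ml and 31.6 ± 5.94 CPM at 100 µg/ml (mean ± SD, n = 3 each). At 48 h it averaged 14.4 ± 3.27, 11.5 ± 2.67 and 33.8 ± 3.0 CPM at these doses. Nupr1 and Asns also had steps, of 0.60 ± 0.13 and 0.83 ± 0.15 (adjusted p = 0.0084 and 0.0013); at 24 h Asns was lower at 100 µg/ml, with a difference of -0.39 ± 0.10 (adjusted p = 0.0051). Over the list, 3 members were higher and 10 lower at 24 h, and 15 were higher and 0 lower at 72 h.

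Contractile genes stepped the other way, with 7 of 20 lower and 0 higher by the test of the difference. At 24 h 7 of the list were higher at 100 µg/ml and 1 lower, and at 72 h 1 was higher and 11 lower. Acta2 was higher at 100 µg/ml at 24 h, with a difference of 0.50 ± 0.11 (adjusted p = 6.14e-04), and lower at 48 h, at -0.44 ± 0.11, and at 72 h, at -0.76 ± 0.11 (adjusted p = 1.66e-06). Its level at 24 h averaged 645 ± 63 CPM at 1 µg/ml, 706 ± 20.2 CPM at 10 µg/ml and 957 ± 7.36 CPM at 100 µg/ml (mean ± SD, n = 3 each), and the step between 24 and 48 h was -0.95 ± 0.15 (adjusted p = 1.71e-04). Vcl and Myl9 had steps of -0.96 ± 0.15 and -0.96 ± 0.15 (adjusted p = 1.06e-04 and 8.32e-05). Ccn2 had 0.37 ± 0.10 at 24 h, -0.83 ± 0.10 at 48 h and -0.35 ± 0.12 at 72 h, a step of -1.20 ± 0.14 (adjusted p = 1.89e-07), and Thbs1 a step of -1.08 ± 0.13 (adjusted p = 5.01e-07). In levels, Ccn2 averaged 84.3, 63.6 and 94.7 CPM at 1, 10 and 100 µg/ml at 24 h. At 48 h it averaged 267, 310 and 161.5 CPM, and at 72 h 67.3, 65.5 and 52.0 CPM. It thus rose from 24 to 48 h at every dose, and less at 100 µg/ml. The levels of Thbs1 themselves moved with time at every dose. It averaged 274 ± 43.9, 259.8 ± 27.2 and 252 ± 27.1 CPM at 1, 10 and 100 µg/ml at 24 h (mean ± SD, n = 3 each). The means in the same order were 704 ± 94.6, 734 ± 54.6 and 322 ± 36.2 CPM at 48 h and 223 ± 14.8, 225 ± 16.6 and 133 ± 7.87 CPM at 72 h, so the mean of every dose was higher at 48 h than at 24 or 72 h. Pdlim5, a cytoskeletal scaffold of muscle and fibroblasts, had 0.18 ± 0.11 at 24 h and -0.93 ± 0.12 at 48 h, a step of -1.11 ± 0.16 (adjusted p = 3.35e-05).

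Mt1, Mt2 and Slc39a10 differed more at 48 h than at 24 h. Mt1 had a log2 difference of 0.18 ± 0.11 at 24 h, 1.25 ± 0.11 at 48 h and 1.60 ± 0.11 at 72 h, and the step between 24 and 48 h was 1.07 ± 0.16 (adjusted p = 5.32e-05). Mt2 had 0.35 ± 0.12, 1.33 ± 0.11 and 1.66 ± 0.11, a step of 0.98 ± 0.16 (adjusted p = 2.41e-04). Slc39a10 had -0.70 ± 0.091, -1.33 ± 0.10 and -1.59 ± 0.092, a step of -0.63 ± 0.13 (adjusted p = 0.0061), which was not called without the third 24 h library of 100 µg/ml (adjusted p = 0.0698). The step of Slc30a1 was 0.94 ± 0.30 and did not pass (adjusted p = 0.13). From 48 to 72 h none of these 4 passed the test of the difference, with Mt1 at 0.35 ± 0.16 (adjusted p = 0.62).

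Neat1, Cdkn1a and Jun differed between times in other ways. The nuclear long noncoding RNA Neat1 was lower at 100 µg/ml at 24 h, with a difference of -1.18 ± 0.082, and differed by -0.06 ± 0.082 at 48 h, a step of 1.11 ± 0.11 (adjusted p = 1.61e-08). Cdkn1a differed by 0.08 ± 0.085 at 24 h, 0.61 ± 0.085 at 48 h and -0.09 ± 0.085 at 72 h, and the step from 48 to 72 h passed, at -0.71 ± 0.12 (adjusted p = 0.0041). Jun differed by -0.07 ± 0.091, -0.55 ± 0.086 and 0.21 ± 0.10, with a step from 48 to 72 h of 0.76 ± 0.13 (adjusted p = 0.0041). Both steps were called with any 1 of the 18 libraries left out. In levels, Neat1 averaged 373, 371 and 164 CPM at 1, 10 and 100 µg/ml at 24 h. At 48 h it averaged 176, 197 and 178 CPM, so the lower doses moved most. Cdkn1a averaged 196.5, 197 and 301 CPM at 48 h and 286, 300 and 275 CPM at 72 h in the same order. Its rise at the lower doses thus exceeded its fall at 100 µg/ml. Jun averaged 85.4, 76.1 and 77.0 CPM at 24 h and 193, 198 and 133 CPM at 48 h. At 72 h it averaged 63.2, 64.0 and 73.6 CPM, so the mean of every dose was highest at 48 h.

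**Figure D5:**
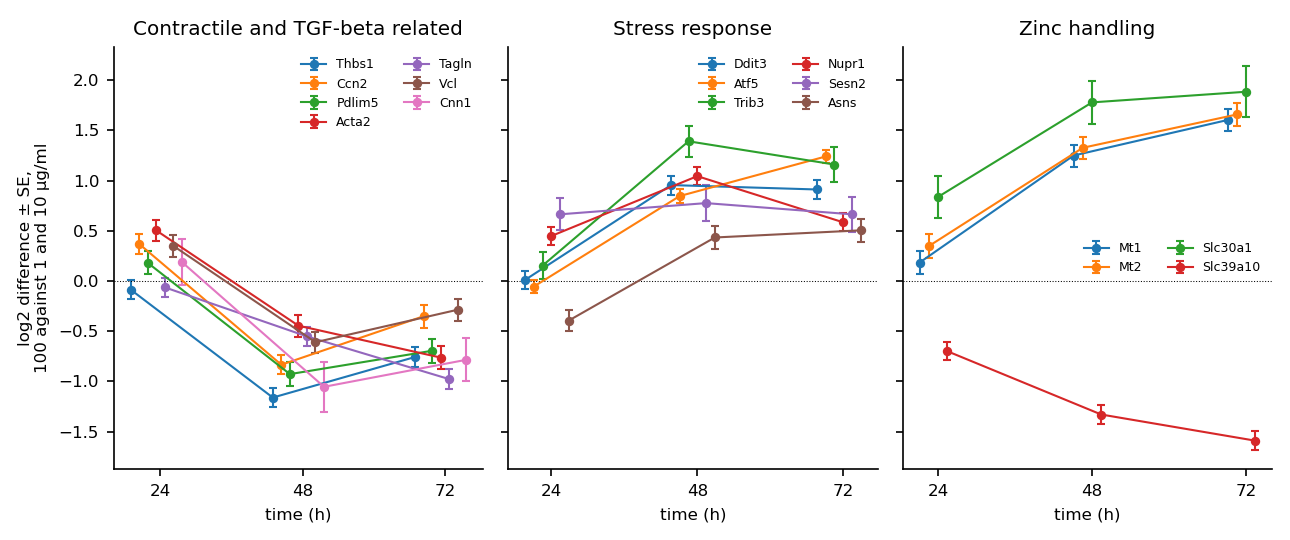
Log2 difference of 100 µg/ml against 1 and 10 µg/ml (y axis, ± SE) at 24, 48 and 72 h for contractile and TGF-beta related, stress response and zinc-handling genes; lines join the times of 1 gene. Acta2 lies above 0 at 24 h and below 0 at 48 and 72 h, Atf5 and Ddit3 lie near 0 at 24 h and at 0.85 and 0.96 at 48 h, and Mt1 and Mt2 lie higher at 48 and 72 h than at 24 h.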

How the data were processed

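Poly(A) RNA was sequenced from its 5′ end. Per the submitters' processing notes, cutadapt 2.1.0 and Bowtie2 2.4.2 were used with GRCm38. The authors deposited raw counts per gene for 39 libraries, and how reads were assigned to genes, and whether strand was used, is not given in the sources used here. Counting per gene without strand can mix overlapping genes. Totals were 1806106 to 3012518 counts per library, so low genes carry the larger counting error.

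From the deposited counts, 14419 genes that passed filterByExpr (99.4% of counts) were fitted with edgeR 4.0.16 in R 4.3.3 (TMM scaling, quasi-likelihood test) over all 39 libraries, with 1 mean per group and 26 residual degrees of freedom. Each lower dose had equal weight. Calls are Benjamini-Hochberg adjusted p under 0.05 over all tested genes. Standard errors are the log2 difference divided by the root of F. The code of this fit was tested on simulated counts, from which no value is reported.

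The genes named were the 15 largest rises and 15 largest falls with a mean log2 CPM of at least 3, no overlap and a call kept with each of 9 libraries left out, passing over predicted genes; up to 6 called members per list and direction; members that did not pass, where needed; and the 8 smallest p per contrast of times or lower doses. Asns, Atf4, C4b, Vcam1 and Spp1 fall outside this rule and were named after their values were seen. The members and lists were chosen with earlier results of these data known. Promoter windows came from RefSeq tables on GRCm38.p6.

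Columns were matched to samples by their headers; the first 2 libraries of 1 µg/ml at 48 h have headers spelled in another way and were matched by serial number. Alternatives were other scaling, no filter, thresholds, thinning to the smallest total, DESeq2 1.42.0, only the libraries of the times compared, and each library left out.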

Additional observations from a re-analysis of the deposited data

Results flagged for a closer look

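In the first library of 10 µg/ml, the summed level of the interferon-induced genes was 3712 CPM and that of the MHC class I genes 2557 CPM, each far from the other 5 lower-dose libraries relative to their spread. The same held for the pericyte and smooth muscle markers in that library, at 250.8 CPM, and for the endoplasmic reticulum chaperones in the second library of 1 µg/ml, at 7776 CPM. Sums of 40 lists and levels of 30 named genes were checked in the 6 libraries, and chance alone marks about 1 in 20 such groups.

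The effect of 100 µg/ml differed between 48 and 24 h by a test of the difference itself. The signed log2 difference was larger at 48 h in 89 genes and smaller in 89. The 8 named genes with the smallest p were Neat1 (1.11 ± 0.11), Atf5 (0.90 ± 0.10), Ccn2 (-1.20 ± 0.14), Thbs1 (-1.08 ± 0.13), the sialyltransferase gene St3gal4 (0.99 ± 0.12), Ddit3 (0.94 ± 0.13), Vgll3, a cofactor of TEAD factors (-0.69 ± 0.10), and Pdlim5 (-1.11 ± 0.16), each the log2 difference at 48 h minus that at 24 h ± SE. These 8 were called with each of the 18 libraries left out.

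Between 72 and 48 h the effect differed in 8 genes with a larger signed log2 difference at 72 h and 3 with a smaller one. Jun (0.76 ± 0.13) and Cdkn1a (-0.71 ± 0.12) were called with each of the 18 libraries left out. The noncoding RNA gene Mir100hg (-0.99 ± 0.18) was called in 16 of these 18 fits, Fbln1 (0.67 ± 0.12) in 15, the proenkephalin gene Penk (1.17 ± 0.23) in 12, Rgcc (1.15 ± 0.23) in 12, the alcohol dehydrogenase gene Adh1 (0.51 ± 0.10) in 6 and Col3a1 (0.48 ± 0.10) in 3.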

How the results depend on the processing

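The directions of all named genes called at 48 h were kept under every alternative run, and 218 of 354 were called in every alternative that kept adjusted p under 0.05. Counts of calls moved more. In what follows, a pair of counts gives higher and then lower genes. A count between times is of genes whose signed log2 difference between doses was larger or smaller at the later time. At adjusted p under 0.01, 352 and 692 genes were called against both lower doses, 242 and 489 against 1 µg/ml and 201 and 491 against 10 µg/ml, 10 were higher at 10 than at 1 µg/ml, 32 and 28 were called between 48 and 24 h, and 2 had a larger difference at 72 than at 48 h. At a log2 difference of at least 1 the counts in this order were 106 and 119, 111 and 122, 79 and 123, then 12 and 17 between 48 and 24 h, and 2 and 0 between 72 and 48 h. Without the first libraries of 10 and 100 µg/ml, chosen after seeing the data, 486 and 743 were called against both lower doses and 201 and 415 against 10 µg/ml, 1 was higher at 10 than at 1 µg/ml, and 1 had a larger difference at 72 than at 48 h. With columns of 1 header spelling, also chosen later, 128 and 274 were called against 1 µg/ml (1 library left there), 0 were higher at 10 than at 1 µg/ml, and 1 and 1 were called between 72 and 48 h. DESeq2 gave 364 higher against 1 µg/ml, 16 at 10 against 1 µg/ml, and 18 and 5 between 72 and 48 h. With no filter, 76 and 2 were called at 10 against 1 µg/ml, and 145 had a smaller difference at 48 than at 24 h and 14 at 72 than at 48 h. Thinning left 16 higher at 10 than at 1 µg/ml, and RLE scaling left 5 with a larger difference at 72 than at 48 h. A fit of only the times compared gave 0 higher at 10 than at 1 µg/ml, and smaller differences in 51 genes at 48 than at 24 h and in 5 at 72 than at 48 h.

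With 1 library left out, 443 to 844 genes were higher and 749 to 1120 lower at 100 µg/ml than at both lower doses, 318 to 421 and 564 to 730 than at 1 µg/ml, 278 to 425 and 565 to 722 than at 10 µg/ml, and 1 to 72 and 0 to 2 at 10 than at 1 µg/ml. Between 48 and 24 h 41 to 197 had a larger difference and 40 to 144 a smaller one, and between 72 and 48 h 1 to 8 and 1 to 3. The cause of these movements was not tested. The comparisons at 24 and 72 h alone were not refitted with libraries left out. No paired analysis was possible because the labels give no replicate numbers shared between groups. Depth limits the precision of genes of low level.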
